A study of Mus musculus with 2 samples.

Results

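Among the alveolar type 2 (AT2) cells of IL-1β-treated mouse lung organoids, 475 cells carried their highest relative score for a set of 3 genes that holds Fgl1 and Trf, and they are called the Fgl1/Trf state here. They were taken from 1650 AT2 cells of that library, the base cells, of which they made up 28.8% (95% interval 26.6 to 31.0), and from 3066 cell barcodes of the library, of which they made up 15.5%. Both libraries together held 5167 barcodes. A base cell had more unique molecular identifiers (UMIs, counted mRNA molecules) of 5 epithelial genes than of 4 stromal genes, at most 2 UMIs of the alveolar type 1 (AT1) genes Hopx, Rtkn2 and Akap5, at least 1% of its UMIs from Sftpc, and a Krt8, Krt19, Cldn4, Sprr1a and Sfn score below the top 15%. Each base cell was then given 4 scores, each the mean log level of 3 genes scaled to the base cells, and joined the state for which its score was highest. The other 3 scores were built on Cxcl10, Cd14 and Tnfaip2 (439 cells), on Cd177, Ceacam10 and Cxcl3 (330 cells), and on Retnla, Gstm1 and Slc7a11 (406 cells). The members were thus selected on measured values, so the levels of these genes, and every difference between the members and the other base cells, are given as a description and not as a test.

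The organoids came from AT2 cells of C57BL/6 SPC-CreERT2;R26RTomato mice given tamoxifen, in co-culture with stromal cells, and were treated with PBS (control) or IL-1β. The study spells the reporter allele R26RtdTomato. The series' design text gives 2 weeks of culture, whereas the study's description of the same cells gives a later day. The SPC (Sftpc) promoter drives the inducible Cre, so the reporter marks cells that expressed surfactant protein C when tamoxifen was given. Each condition was 1 droplet-based library, so condition and library cannot be told apart, and the 95% intervals given with values cover counting error only. The IL-1β library held 41220175 UMIs with a median of 11496.5 per barcode, and the control library 33965848 UMIs in 2101 barcodes with a median of 14613. The members held 5082565 UMIs with a median of 10432 per cell, against 11961 in the other 1175 base cells. The libraries shared 11 barcode sequences, of which 1 belonged to a member.

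AT2 cells make and recycle lung surfactant and are the progenitors of the alveolar epithelium, and IL-1β is an inflammatory cytokine that acts through the IL-1 receptor and NF-κB. Fgl1 encodes a fibrinogen-like protein that the liver secretes into plasma, and Trf encodes transferrin, the iron carrier of plasma. On the mouse build GRCm38, Fgl1 lies on chromosome 8 from 41191434 to 41215156 and Trf on chromosome 9 from 103204001 to 103230444, both on the minus strand.

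Fgl1 and Trf differed in how they marked the members. All 475 members carried Trf UMIs, with a lowest value of 4, a median of 35 and a highest of 160 UMIs per cell, against 0, 10 and 300 in the other base cells. Fgl1 UMIs were found in 213 members (44.8%, 95% interval 40.3 to 49.4), with a median of 0 and at most 15 per cell. Most members therefore carried Trf UMIs without Fgl1 UMIs, and the state is named by its rule and not as a cell type.

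The score had no gap at its limit. The median score of the members was 0.89 SD above the mean of the base cells, with a range from −0.56 to 4.33, and 36 members lay below that mean. The next-highest score lay within 0.1 SD for 35 members and within 0.5 SD for 155, and 32 of the other base cells were within 0.1 SD of joining. The 35 members just inside had 44.7 Fgl1 and 2316 Trf UMIs per 1000000 UMIs (CPM), and the 32 cells just outside had 23.0 and 2458 CPM. The 9 genes of the other scores were not absent from the members. Cd14, the lipopolysaccharide co-receptor, had a median of 2 UMIs per member and 5 per other base cell, the glutathione transferase Gstm1 a median of 1 in both, and the other 7 genes a median of 0 in both. In CPM the 9 genes were lower in the members, as the rule fixed, with Cd14 at 318 against 567 CPM and Gstm1 at 114 against 356 CPM. The state is a range of a continuous score, as the plot of the scores shows.

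**Figure D1:**
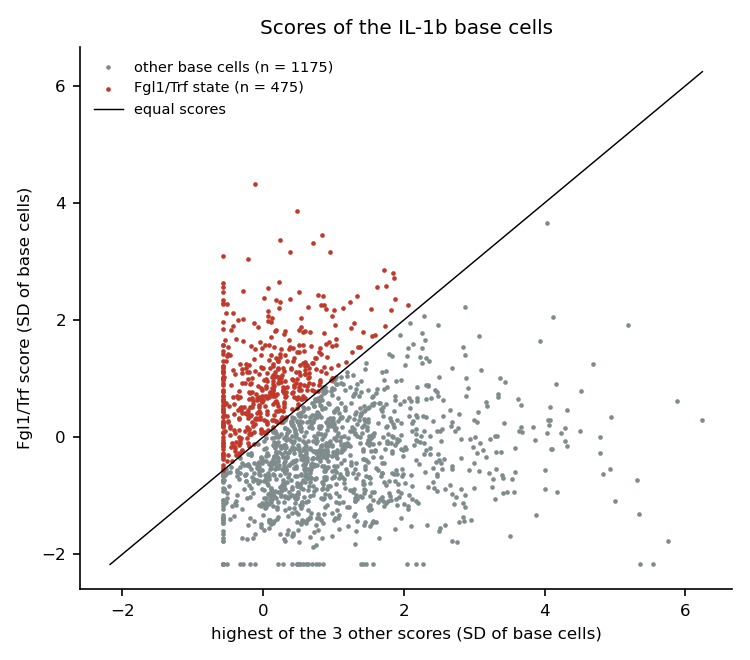
Each point is 1 of the 1650 IL-1β (IL-1b) base cells, with its Fgl1/Trf score on the vertical axis and the highest of its 3 other scores on the horizontal axis, both in SD of the base cells. The 475 members (red) lie above the line of equal scores and run into the 1175 other cells (grey) without a gap.

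Across the cell groups, Fgl1 summed to 115 CPM in the members, and to 18.3, 32.5 and 27.8 CPM in the Cxcl10/Cd14, Cd177/Ceacam10 and Retnla/Gstm1 states. Trf summed to 3875 CPM in the members, and to 1209, 1787 and 1164 CPM in those states. The members were highest for both genes, which the choice of members fixed, and the ratio to the other base cells as one group was 4.44 for Fgl1 and 2.84 for Trf.

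Outside the base cells, the groups were not used to set the scores. Of these, the 97 IL-1β epithelial barcodes with little Sftpc had 41.5 Fgl1 and 3109 Trf CPM, so Trf was nearly as high there as in the members. The 292 barcodes above the Krt8 score limit had 33.4 and 1473 CPM, and the 341 barcodes with more AT1 gene UMIs had 5.37 and 502 CPM. The 686 stromal barcodes had 10.1 and 222 CPM. Barcodes with AT1 genes and stromal barcodes were thus lowest in the IL-1β library. In the 743 control base cells Fgl1 was at 1.81 CPM and Trf at 816 CPM. Both genes were lower in control base cells than in the members, as the plot of levels by cell group shows. The ratios were 63.6 for Fgl1 (95% interval 40.8 to 105) and 4.75 for Trf (4.63 to 4.87). The members were chosen on these genes and the control base cells were not, which fixed part of these ratios. All IL-1β base cells together had 49.0 Fgl1 and 2012 Trf CPM.

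**Figure D2:**
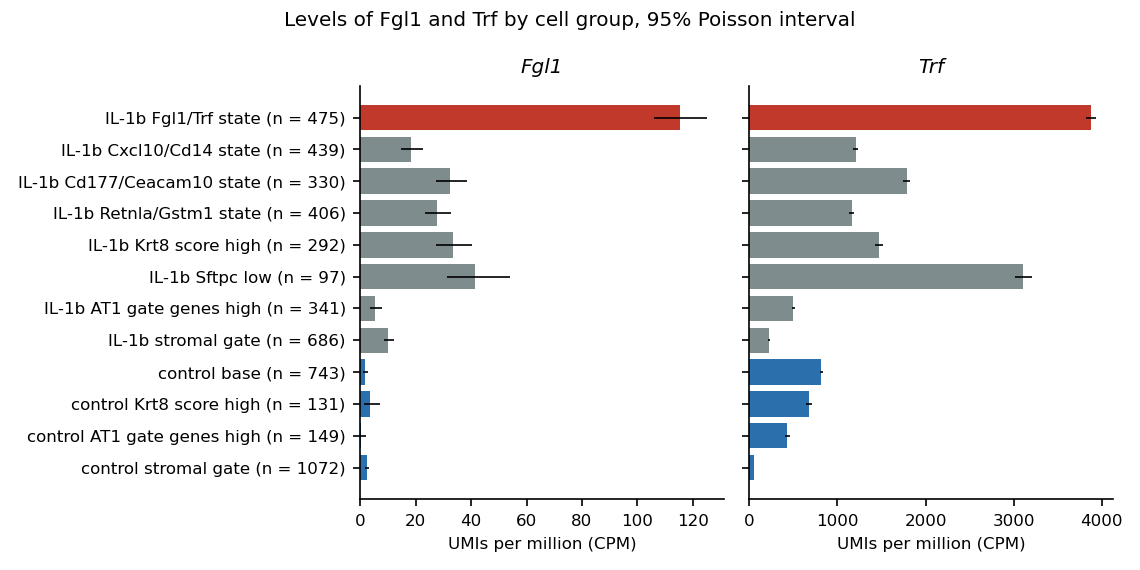
Summed UMIs per 1000000 (CPM) of Fgl1 and Trf in each cell group, with exact Poisson 95% intervals and the number of cells, where IL-1b stands for IL-1β. The Fgl1/Trf state (red) reached 115 and 3875 CPM, the other IL-1β groups (grey) include the Sftpc-low barcodes with 3109 Trf CPM, and the control groups (blue) stayed at or below 816 Trf CPM.

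Free RNA in droplets can place UMIs in cells that do not express a gene, so the shares of cells with a UMI were set beside those of the stromal barcodes. With each cell thinned to 4500 UMIs, Fgl1 UMIs were found in 30.9% of the members, 8% of the other base cells and 4.66% of the IL-1β stromal barcodes. Without thinning, the shares were 44.8%, 17.6% and 11.8%, at median depths of 10432, 11961 and 12220 UMIs. Trf UMIs were found in nearly every base cell, with 96.7% of the other base cells and 78.1% of the IL-1β stromal barcodes, or 89.7% and 44.9% after thinning, so carrying Trf UMIs did not by itself set the members apart. In the control library the thinned share of base cells with Fgl1 was 0.673% and that of stromal barcodes 0.933%, so Fgl1 was at the background level there.

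The scores rank cells within a library and do not measure its level. On the scale of the IL-1β base cells, the Fgl1/Trf score was the highest of the 4 in 201 control base cells (27.1%), a share near that of the members, although the median control score was −0.70. On the control library's own scale the number was 226. Control cells with this score highest had 1376 Trf CPM and 2.76 Fgl1 CPM, so the share of cells in the state says nothing of how much of these genes they carried.

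Leaving Fgl1 or Trf out of the score gave a measure of it that the choice of cells had not used. Cells chosen without Fgl1 (491) had 84.1 Fgl1 CPM against 36.1 in the other base cells, a ratio of 2.33 (95% interval 2.05 to 2.65). Cells chosen without Trf (337) had 3041 Trf CPM against 1767, a ratio of 1.72 (95% interval 1.68 to 1.76), and these made up 56.0% of the state with 266 shared cells. Both genes were higher in cells chosen without them, though less so than in the members.

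AT2 genes stood at like levels in the members and the other base cells. The 20 genes of the AT2 list, which include Sftpc of the rule, summed to 165493 CPM in the members and 163395 in the other base cells. None of the 20 differed by 1.5-fold between the members and the other base cells, where 2.14% of the 9202 genes with at least 100 UMIs over both groups, called tested here, were at least 1.5-fold higher (197 genes) and 2.11% at least 1.5-fold lower (194 genes). Sftpc was at 0.95 and surfactant protein B (Sftpb) at 1.00 times the level of the other base cells, and the transcription factors Nkx2-1 and Cebpa were at 1.06 and 1.17 times. The AT2 genes farthest from 1 were the calcium-binding S100g at 1.39, lysozyme Lyz2 at 1.27 and surfactant protein D (Sftpd) at 0.76. Of 7 tested genes of the stromal list, none of them a gate gene, 5 were above 1 and 1 was at least 1.5-fold higher, with a median log2 ratio of 0.06. The 13 listed genes summed to 356 CPM in the members (95% interval 339 to 372), 286 CPM in the other base cells (278 to 295) and 5229 CPM in the IL-1β stromal barcodes, and all 13 had UMIs in the members. Col6a1, the most abundant, was at 153 and 117 CPM and fibronectin (Fn1) at 59.6 and 24.3 CPM (ratio 2.45, with 570 CPM in the stromal barcodes), and these genes carried the difference between the sums. The part of stromal RNA in the results was not tested. The gate genes Col1a2 and Dcn, which the choice of base cells limited, were at 33.3 and 136 CPM in the members and 30.4 and 131 CPM in the other base cells, against 1174 and 4623 CPM in the IL-1β stromal barcodes. Of the macrophage and leukocyte list, Ptprc had 2 UMIs in all members and 9 genes, Tyrobp, Adgre1 and Csf1r among them, had 0. The list summed to 56.7 CPM in the members and 44.7 CPM in the other base cells, mostly from Cd68, a lysosomal protein gene, at 51.4 and 37.8 CPM.

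Of the 23 gene lists, that of hypoxia and glycolysis had the most genes past the fold and higher in the members. Cells under low oxygen stabilise the factor HIF-1, which raises genes for glucose uptake, glycolysis and lactate export. Of 24 listed genes 21 were tested, 19 were above 1, 10 were at least 1.5-fold higher than in the other base cells and none was 1.5-fold lower. The list's median log2 ratio was 0.53, against 0.00 for all genes tested, and it was 0.31 with Trf left out of the score. The 24 genes summed to 5803 CPM in the members and 4150 CPM in the other base cells, a ratio of 1.40 (95% interval 1.38 to 1.42), and their most abundant gene was Gapdh. This list sum was 4349, 3865 and 4193 CPM in the Cxcl10/Cd14, Cd177/Ceacam10 and Retnla/Gstm1 states. It was higher than in the members in the barcodes above the Krt8 score limit (5942 CPM), with AT1 genes (6497 CPM), with little Sftpc (7691 CPM) and in the stromal barcodes (7487 CPM), so the members stood highest only among the 4 AT2 states of that library. In the cells chosen without Trf the sum was 1.22 times that of the other base cells (95% interval 1.198 to 1.236). Over the base cells the Spearman correlation with this list was 0.425 for Trf and 0.129 for Fgl1. Within the members it was 0.243 for Trf and −0.006 for Fgl1, which had a median of 0 UMIs per member. The list thus went with Trf, a gene of the score, so its higher level is not read as independent of the choice of members. The part of Trf in it was not tested further.

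By role, the oxygen sensor Egln3, a prolyl hydroxylase that is itself a HIF target, was at 23.6 CPM in the members and 7.26 CPM in the other base cells (ratio 3.25, 95% interval 2.48 to 4.27). Slc16a3, the lactate exporter MCT4, was at 25.8 and 8.97 CPM (ratio 2.87, 95% interval 2.24 to 3.69). The phosphofructokinase genes Pfkp and Pfkl, which commit glucose to glycolysis, had ratios of 2.24 and 1.93. With Trf left out of the score, the log2 ratios were 0.69 for Egln3, against 1.70, and 0.80 for Slc16a3, against 1.52, so both were then less than 2-fold higher. The mitophagy gene Bnip3 had a ratio of 2.09, the stress-response gene Ndrg1 1.95, and Pdk1, which holds pyruvate back from mitochondria, 1.83. Pgk1, Tpi1 and Ankrd37 had ratios of 1.66, 1.60 and 1.54. The other glycolytic enzymes were under the fold limit, among them Ldha at 1.45, Aldoa at 1.41, Pkm at 1.36 and Gapdh at 1.32. The gene for the oxygen-regulated subunit itself, Hif1a, was at 111 CPM in the members and 129 CPM in the other base cells (ratio 0.86), and the hexokinases Hk1 and Hk2 were at 0.95 and 1.12. The glucose transporter Slc2a1 was at 33.8 and 28.2 CPM and the growth factor Vegfa at 89.5 and 72.0 CPM, both under the fold.

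Cells that the rule had left out were scored too, the IL-1β barcodes on the mean and SD of the base cells and the control cells on those of their own library, a comparison added after the members' values were seen. Among the 292 IL-1β barcodes above the Krt8 score limit, the 64 with this score highest had 7919 CPM of the hypoxia and glycolysis list against 5454 CPM in the other 228, a ratio of 1.452 (95% interval 1.407 to 1.499), with 8 of 16 tested genes at least 1.5-fold higher, where 3.54% of all tested genes were. Among control base cells the 226 with this score highest had 2608 CPM against 2464 CPM in the other 517, a ratio of 1.06 (95% interval 1.03 to 1.09), with 0 of 17 tested genes at least 1.5-fold higher, where 0.825% of all tested genes were. In these control groups Fgl1 had 9 and 11 UMIs, so the score had little Fgl1 to rest on there. Trf, as the score fixed, was at 1376 and 581 CPM (ratio 2.37, 95% interval 2.27 to 2.47), and so marked the groups in both libraries. The ratio was thus higher in the IL-1β barcodes than in the control cells, a difference that 1 library per condition does not allow to be tested.

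**Figure D3:**
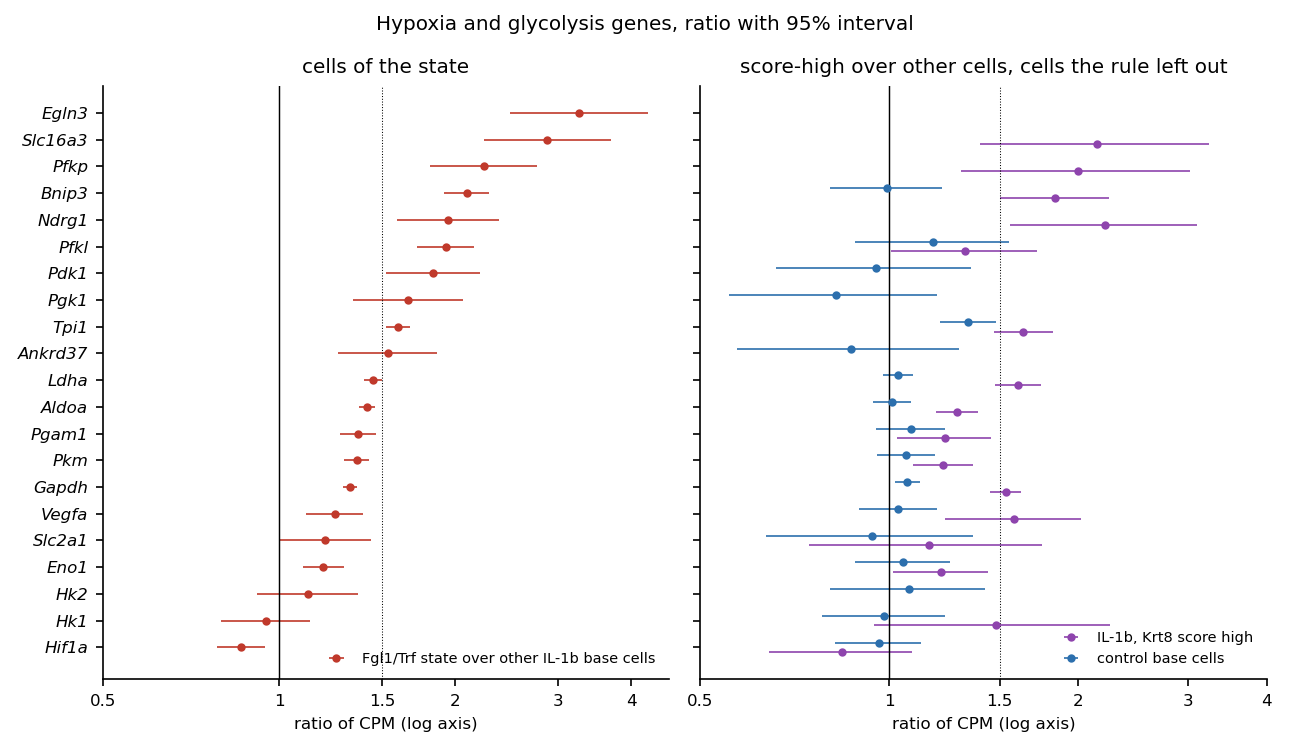
Ratios of CPM (log axis) with exact 95% intervals for the hypoxia and glycolysis genes with at least 100 UMIs. The left panel sets the Fgl1/Trf state over the other IL-1β base cells, from 3.25 for Egln3 to 0.86 for Hif1a, and the right panel sets cells with this score highest over the others in IL-1β barcodes above the Krt8 score limit (purple) and in control base cells (blue). The dotted line marks 1.5-fold.

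Of the 10 genes of the immediate early and heat shock list, which cell dissociation can raise, 2 were at least 1.5-fold higher and 1 at least 1.5-fold lower in the members, with a median log2 ratio of 0.21. Fos was at 1.63 and Egr1 at 1.64 times the level of the other base cells, the heat shock gene Hsph1 was at 0.62 times, and the list summed to 1144 CPM against 902 CPM. In base cells with at most 2 UMIs of Fos, Fosb, Egr1, Jun and Ier2 together, 70 were members and 216 were not, at median depths of 7455 and 9021 UMIs. There, the hypoxia and glycolysis sum was 1.199 times as high in the members (95% interval 1.151 to 1.249), with 9 of 11 tested genes above 1 and 1 at least 1.5-fold higher, where 2.26% of all tested genes were. In these cells Ndufa4l2 had 28 UMIs in members and 41 in the others (ratio 2.45, 95% interval 1.46 to 4.06), so its ratio was lower than over all base cells. Egln3 had 19 and 15 UMIs (ratio 4.54, 95% interval 2.19 to 9.61). The part of the immediate early genes in the result was not tested further.

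Some genes outside that list had higher ratios. Ndufa4l2, a hypoxia-responsive mitochondrial protein gene, was at 68.1 CPM in the members and 9.45 CPM in the other base cells (ratio 7.21, 95% interval 5.90 to 8.84), but its 346 UMIs lay in only 81 of the members. It was also at 80.6 CPM in the IL-1β stromal barcodes, and the part of stromal RNA in this result was not tested. In base cells with 0 stromal gate UMIs, of which 18 were members, its log2 ratio was 4.02. With Trf left out of the score its log2 ratio was 2.01, against 2.85. The phosphodiesterase gene Gdpd2 was at 15.3 and 1.71 CPM (ratio 8.97), and Pon1, a plasma esterase of the liver, at 20.5 and 2.60 CPM (ratio 7.87). The Pon1 ratio was 3.70 when cells were chosen and measured on separate UMIs, and among the barcodes above the Krt8 score limit Pon1 had 2 UMIs in cells with this score highest and 9 in the others (ratio 0.90, 95% interval 0.095 to 4.35). Lipa, the lysosomal acid lipase, had a ratio of 3.35, Rbp4, the plasma carrier of retinol, 3.07, and the water channel Aqp4 3.57. The somatostatin receptor gene Sstr2 had a ratio of 4.72. Svopl, Susd2, Col15a1, Col12a1 and Tekt1 had ratios between 2.98 and 3.70. Among the 55 base cells with 0 stromal gate UMIs, 18 of them members, the log2 ratios of Sstr2, Col12a1 and Tekt1 were 0.08. These cells are too few to tell whether the difference was lost. Col15a1 and Col12a1 were at 12.6 and 16.9 CPM in the members and at 37.8 and 38.5 CPM in the IL-1β stromal barcodes. With Trf left out of the score, Gdpd2, Sstr2, Susd2, Col15a1 and Col12a1 had log2 ratios of 2.49, 1.62, 0.75, 0.99 and 0.86, each over 1.5 times lower as a ratio. Each was carried by a minority of the members, as Lipa by 36.8%, Aqp4 by 17.3% and Gdpd2 by 11.2%.

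Within the members, some of these genes varied with the strength of the score. The members were divided by score into 4 groups of 118 or 119 cells. From the lowest to the highest, Trf was at 1971, 3685, 4477 and 5374 CPM and Fgl1 at 26.9, 34.1, 83.7 and 333 CPM, which the score fixed. The hypoxia and glycolysis sum was at 5416, 5661, 5765 and 6407 CPM over the same groups. Pon1 was at 9.78, 10.6, 17.0 and 46.4 CPM, and Aqp4 at 14.7, 13.6, 17.8 and 53.2 CPM, and Ndufa4l2 at 68.4, 34.8, 53.4 and 122 CPM. These 3 genes were highest in the top group, and of them only Pon1 followed the order of the groups throughout. The single genes of the hypoxia list that were divided in this way did not follow the order throughout. Egln3 was at 21.2, 28.0, 18.5 and 27.0 CPM, Slc16a3 at 31.8, 24.2, 16.3 and 32.1 CPM and Pgk1 at 31.0, 28.0, 17.8 and 32.1 CPM. The top group stood out more for Bnip3, at 143, 169, 144 and 203 CPM. It did so too for Ndrg1, at 24.4, 32.6, 31.9 and 43.9 CPM, and Pdk1, at 35.8, 33.3, 35.6 and 47.3 CPM. Sftpc stayed between 67851 and 72957 CPM, whereas Lyz2 rose in order, at 38586, 44413, 46237 and 54742 CPM.

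Genes of the NF-κB, interferon and NRF2 lists were more often lower than higher in the members, which were chosen to be lower in the other 3 scores. Those scores hold genes of the same pathways, which were left out of the lists. They are Cxcl3, Cxcl10, Tnfaip2 and Cd14 for NF-κB, Cxcl10 for interferon, and Gstm1 and Slc7a11 for NRF2. The choice of members thus fixed part of these lower levels, and the counts below are a description only. Of 20 tested NF-κB feedback and target genes, 0 were at least 1.5-fold higher and 7 at least 1.5-fold lower than in the other base cells, with a median log2 ratio of −0.32, where 2.14% and 2.11% of all tested genes were that much higher and lower. The neutrophil-attracting chemokine Cxcl5 was at 0.26, the dendritic and T cell attractant Ccl20 at 0.39, the growth factor Csf1 at 0.29 and Cxcl2 at 0.55 times. Of 14 tested interferon-stimulated genes, all were below 1 and 6 were at least 1.5-fold lower, with Isg15 at 0.48 and Ifi27l2a at 0.43 times. Some of these genes rested on few cells. For Ifit1 and Rsad2, 1 of the other base cells held 48.7% and 65.3% of that group's UMIs. The list's median log2 ratio was −0.45 and lay between −0.76 and −0.33 over 21 alternatives of the processing. Of 21 tested NRF2 targets 3 were at least 1.5-fold lower and 0 higher, with the quinone reductase Nqo1 at 0.48 times. Of 22 tested genes of ATF4 and endoplasmic reticulum stress, 2 were at least 1.5-fold lower and 1 higher, nearer to the background shares. The serine synthesis enzymes Phgdh and Psat1 were at 0.51 and 0.56 times and the lipoprotein receptor Vldlr at 1.70 times.

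Several of the genes with the lowest ratios rested on very few cells. Scgb3a1, an airway secretoglobin, was at 0.09 times, but 712 of its 1460 UMIs in the other base cells came from 1 cell. Bpifa1, an airway defence protein, was at 0.15 times with 1026 of 1167 UMIs in 1 cell. The chemokine Ccl5, Klk10 and the interferon-induced Ifit1 and Rsad2 had between 48.7% and 88.8% of their UMIs in 1 of the other base cells. Their ratios describe those cells. Cxcl5, Bex2 and Ifi27l2a were spread more widely, with at most 6.21% of the UMIs of the other base cells in 1 cell.

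Other genes of the pathways to which Fgl1 and Trf belong were counted in lists so short that the shares over all tested genes (2.14% higher and 2.11% lower) come to less than 1 gene each way, so counts of 0 or 1 are not read as a result about the members. Of 11 tested acute phase and plasma protein genes, 0 were 1.5-fold higher or lower, with Saa3 at 1.01, Hp at 1.16 and Lcn2 at 0.83 times. Of 16 tested IL-6 and STAT3 pathway genes, 0 were past the fold, with Stat3 at 1.12 and its inhibitor Socs3 at 1.07 times. Only 3 of 15 IL-4, IL-13 and STAT6 genes reached 100 UMIs, among them the receptor Il4ra at 0.92 and Stat6 at 1.04 times. Transferrin iron enters cells through its receptor and is stored in ferritin. Of 16 tested genes of iron handling and metallothioneins, the iron-binding Ltf was at 0.59 times and no other was past the fold, with the transferrin receptor Tfrc at 1.06 and the ferritin gene Fth1 at 0.96 times. In the family of Fgl1 only Angptl4 was tested, at 0.68 times.

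The remaining lists were as short, and counts of 0 or 1 in them lie near the same background shares. Of 19 tested sterol and fatty acid synthesis genes and 7 MHC class II genes, 0 were past the fold. In the list of primed AT2 genes Itga7 was at 1.53 times, in that of AT1 genes Clic5 at 1.65 times, and among damage-associated transient progenitor (DATP) genes only Ndrg1, which is also on the hypoxia list, was past the fold. Of 12 tested epithelial transcription factors 0 were past the fold, with Klf5 at 1.34 times. Of 5 tested airway secretory and basal genes 1 was at least 1.5-fold higher and 2 lower, with a median log2 ratio of −0.33. This median was 0.86 with the summed score and −2.78 with a gene minimum of 500 UMIs, so its direction depended on the processing. Sums over the list were 183 CPM in the members and 368 CPM in the other base cells. Among the latter, 1 cell held 1026 of 1167 Bpifa1 UMIs and 1 cell held 712 of 1460 Scgb3a1 UMIs. The difference between the sums thus rested in large part on few cells. The higher gene was Scgb1a1 at 24.2 against 15.7 CPM, with UMIs in 9.89% of the members and 8.17% of the other base cells. Of 17 cell cycle genes only 4 reached 100 UMIs over these cells, and 0 of them were past the fold.

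**Figure D4:**
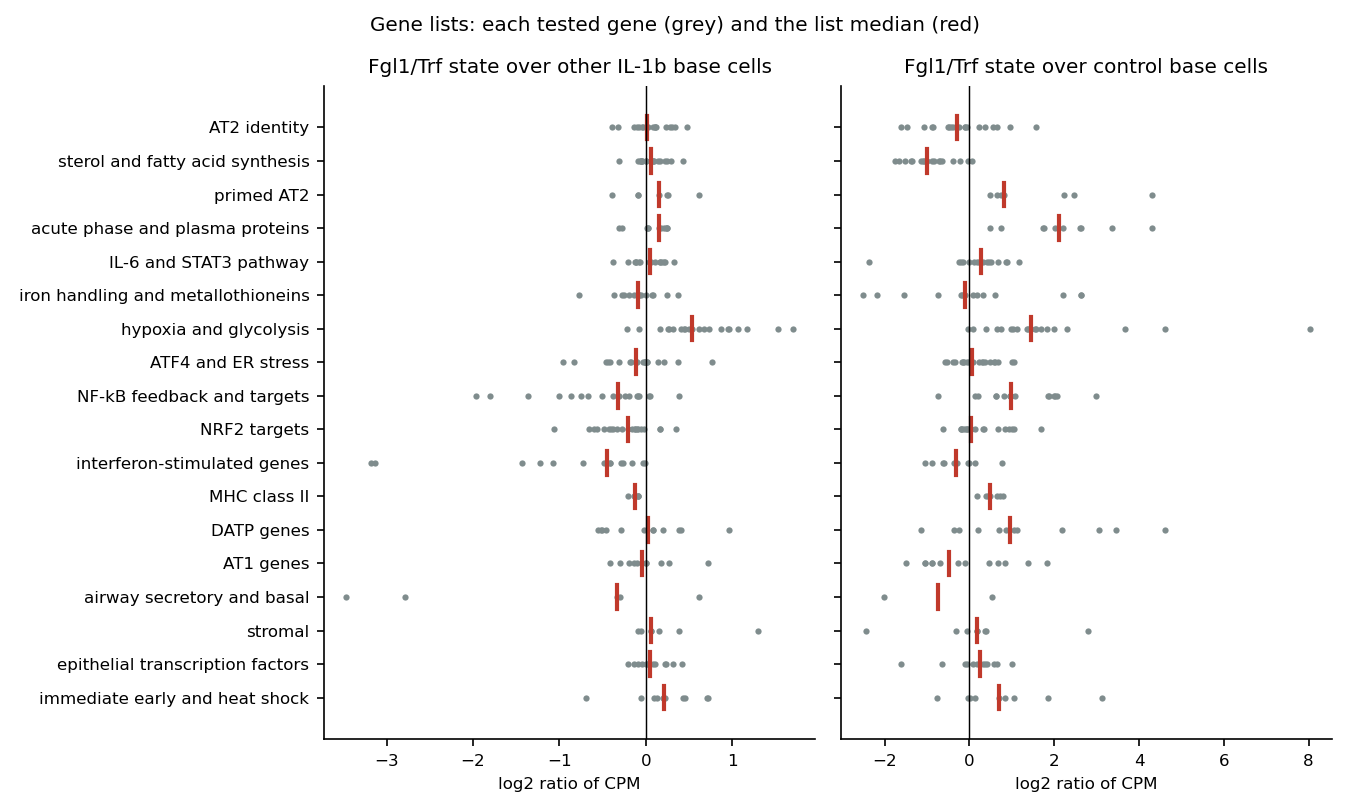
Log2 ratio of CPM for each tested gene (grey) of the lists shown, each with at least 5 tested genes, and the list median (red), for the Fgl1/Trf state over the other IL-1β (IL-1b) base cells (left) and over control base cells (right). Genes at 0 UMIs in either group have no point. On the left the hypoxia and glycolysis list has a median of 0.53 and the interferon-stimulated list a median of −0.45.

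The base cells were also clustered without the 12 score genes and the genes of the selection steps. Of 8 clusters, the one with Ndufa4l2, Pon1 and Lipa among its leading genes held 295 cells, of which 205 were members (69.5%, 95% interval 63.9 to 74.7). These 205 cells were 43.2% of the state. The cluster had 119 Fgl1 and 3914 Trf CPM, and its hypoxia and glycolysis sum of 7042 CPM was the highest of the 8. A cluster of 90 cells led by Bpifa1, Ltf and Scgb3a1 was 51.1% members, and the remaining 6 clusters were between 4.94% and 27.8% members. The fewest were in the cluster led by Bex2, Ces1f and Nqo1. With 4 clusters the highest share was 71.5%, and with 19 clusters it was 75.8%, in a cluster led by Pon1 and Gdpd2. That cluster had a hypoxia and glycolysis sum of 6395 CPM and 158 Fgl1 CPM. The highest sum of the 19 clusters, 10510 CPM, was in another cluster of 72 cells, with 58.3% members and 43.4 Fgl1 CPM. A group of cells with the leading genes of the state was thus set apart without its 3 genes, but most members lay in other clusters. The leading genes and the hypoxia and glycolysis genes were open to the clustering, in the same cells. The clusters are therefore a description and not independent support.

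**Figure D5:**
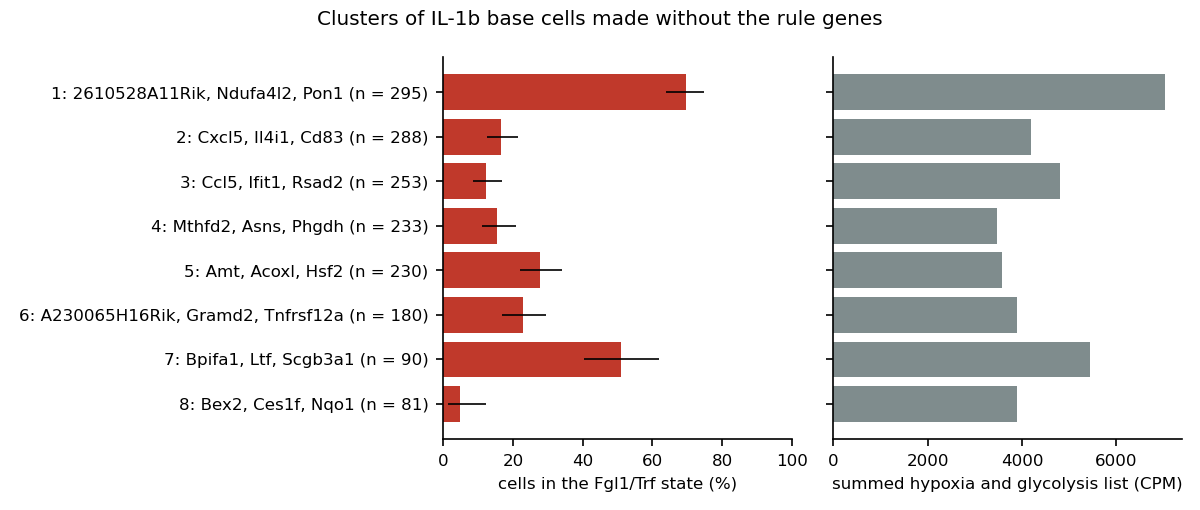
Share of members with exact binomial 95% intervals (left) and summed CPM of the hypoxia and glycolysis list (right) in the 8 clusters of IL-1β base cells, each with 3 of its leading genes and number of cells. Cluster 1 has the most members, 69.5%, and the highest sum, 7042 CPM.

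Against control base cells, 12.5% of 8644 tested genes were at least 1.5-fold higher in the members (1084 genes) and 8.23% at least 1.5-fold lower (711 genes). This comparison and that with the other base cells share the 475 members. This split depended on the scaling. With surfactant, mitochondrial and ribosomal protein genes left out of the totals, every log2 ratio shifted by −0.14 and the numbers were 799 higher and 1036 lower. Of the 20 AT2 genes, 3 were at least 1.5-fold higher and 5 at least 1.5-fold lower, with a median log2 ratio of −0.29. Sftpc was at 70086 CPM in the members and 100234 CPM in the control base cells, and the other 19 genes summed to 95407 and 70703 CPM. The hypoxia and glycolysis list had 18 of 21 tested genes at least 1.5-fold higher, with a median log2 ratio of 1.44 against 0.08 for all genes. Slc16a3 had 131 UMIs in the members and 0 in the control base cells, at least 94.8-fold higher when 0 is taken as 3 counts over the group. Ndufa4l2 was at 68.1 CPM against 0.363 CPM, from 4 control UMIs (ratio 188, 95% interval 72.7 to 693). Egln3 was at 23.6 against 0.0906 CPM, from 1 control UMI (ratio 260, 95% interval 45.9 to 10374). In the IL-1β stromal barcodes Slc16a3, Ndufa4l2 and Egln3 were at 24.1, 80.6 and 45.2 CPM. The part of stromal RNA in these folds was not tested. The Hif1a ratio was 1.56.

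Genes of the acute phase, of NF-κB, of sterol synthesis and of the cell cycle also differed between the members and control base cells. Of 10 tested acute phase and plasma protein genes 9 were at least 1.5-fold higher, among them Orm1 at 19.7, Saa3 at 6.13 and Lcn2 at 4.65 times. Saa3 was at 50311 CPM in the IL-1β stromal barcodes and between 2978 and 3271 CPM in each IL-1β epithelial group, so its fold over control is not read as expression by the members. Orm1 and Lcn2 were lower in the stromal barcodes (7.58 and 8654 CPM) than in the members (78.7 and 16585 CPM). Of 16 tested NF-κB genes 13 were at least 1.5-fold higher and 1 lower. The mucosal immunoglobulin transporter Pigr was 68.6-fold higher and the matrix metalloproteinase Mmp3 31.0-fold higher, and both were close to the level of the other base cells, with ratios of 1.25 and 1.01. Mmp3 was at 9125 CPM in the IL-1β stromal barcodes and between 299 and 339 CPM in each IL-1β epithelial group, a like low level, so its fold, like that of Saa3, is not read as expression by the members. Pigr was at 25.7 CPM in the stromal barcodes. Of 19 tested sterol and fatty acid synthesis genes 15 were at least 1.5-fold lower, with Scd1 at 0.32 and Insig1 at 0.35 times, and all 15 tested cell cycle genes were at least 1.5-fold lower. The brain-expressed X-linked gene Bex2 was at 6.69 CPM against 900.0 CPM, and it was at 30.9 CPM in the other IL-1β base cells. Aqp4 had 0 UMIs in the control base cells and was at least 89.0-fold higher in the members. Smpdl3b and Basp1 were 50.7-fold and 36.7-fold higher than in control base cells. The ubiquitin ligase gene Neurl3 and the macrophage elastase gene Mmp12 had 125 and 120 UMIs in the members and 1 UMI each in the control base cells, with ratios of 271 (95% interval 47.8 to 10802) and 260 (95% interval 45.9 to 10374). Mmp12 was at 494 CPM in the IL-1β stromal barcodes and between 14.3 and 23.6 CPM in the IL-1β epithelial groups, so its fold is not read as expression by the members either, whereas Neurl3 was at 6.53 CPM in the stromal barcodes. At the other end, Bex4 was at 3.15 CPM against 244 CPM, and Mlana, with 4 UMIs in the members, at 0.787 against 34.1 CPM. The cell division genes Rrm2, Cdca3, Ube2c and Birc5 had 1, 1, 2 and 2 UMIs in the members and 247, 186, 302 and 220 in the control base cells. Pbk, Igfbp2 and Arxes2 had 0 UMIs in the members and were at least 18.6-fold, 23.3-fold and 21.8-fold lower.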

How the data were processed

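Control and IL-1β-treated organoids were profiled by droplet-based 3' scRNA-seq, 1 library per condition. The authors deposited raw UMI counts per gene and cell, quantified with Cell Ranger on the mouse genome GRCm38, and the stated cutoffs (more than 500 and fewer than 7000 genes, more than 2000 UMIs) are not applied in the files. All members passed these cutoffs. Scrublet with the stated settings marked 3 of 5142 cells (0.0583%), under the 0.5% at which the caller is taken to have worked, so doublets remain.

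UMIs were matched by symbol. Scores were means of ln(1 + counts per 10000), scaled by the mean and SD of the base cells, and the Krt8 score limit was set among barcodes that passed the other conditions, separately in each library. CPM is a gene's UMIs summed over cells per 1000000 UMIs, with exact Poisson intervals for levels, exact conditional intervals for ratios and Clopper-Pearson intervals for shares. Genes with at least 100 UMIs over both groups were tested against a fold of 1.5, and no p-value was computed. For a gene with 0 UMIs in a group, the fold was set against 3 UMIs over that group. Intervals and counts were tested on simulated data. Clusters were found with leidenalg 0.10.2 at a resolution of 1.0. Calculations used numpy 2.4.6 and scipy 1.17.1.

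The named genes are the 12 rule genes, the 15 highest and 10 lowest against the other base cells, the 10 highest and 10 lowest against control, ranked by the interval limit nearest 1 without mitochondrial, ribosomal protein and predicted genes, and genes of 23 lists that passed the fold or had a high level. Genes of the lists named for their role, under the fold and not of high level, were picked after their values were seen. The members and lists were chosen with earlier results of these data known. The third gene of the score and 1 of the 15 highest genes are not reported here. Gene positions are those of GENCODE M21. Alternatives varied the cell filters, selection limits, scores, depth, scaling and gene limits.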

Additional observations from a re-analysis of the deposited data

How the results depend on the processing

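Of 23 alternatives, 22 were planned and 1, 0 stromal gate UMIs, was chosen after seeing the data. The share of base cells in the state was 31.6% with at most 2 stromal gate UMIs, 32.7% with 0, 19.4% with a margin of at least 0.5 SD, 17.6% with UMIs of at least 2 of the 3 genes and 20.4% with Trf left out of the score. The numbers of genes at least 1.5-fold higher and lower than in the other base cells, then higher and lower than in control base cells, were 111, 119, 452 and 345 with at most 2 stromal gate UMIs, which left 133 members, and 24, 27, 76 and 73 with 0, which left 18. They were 536, 650, 1965 and 1352 with a gene minimum of 20 UMIs, 53, 37, 371 and 282 with a minimum of 500, and 51, 43, 433 and 262 at a 2-fold limit. Thinning to 4500 UMIs gave 113 higher than in the other base cells, and 654 higher and 441 lower than in control. UMIs of at least 2 of the 3 genes gave 334 lower, and leaving Trf out of the score gave 128 higher, than in the other base cells.

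Of 43 log2 ratios of single genes, 36 kept their direction under every alternative run. With at most 2 stromal gate UMIs the log2 ratio to the other base cells was 0.48 for Scgb3a1, 0.15 for Bpifa1, 2.32 for Ccl5, 0.32 for Klk10 and 1.32 for Rsad2. With 0, which left only 18 members, it was −0.51 for Svopl and 2.66 for Ifit3, and 0.08 for Sstr2, Col12a1 and Tekt1. With the summed score it was 1.07 for Scgb3a1, 4.44 for Bpifa1 and 4.67 for Klk10. The median of the airway list was then 0.86 against the other base cells and 4.88 against control. With the Krt8 score below the top 25% the log2 ratio to the other base cells was 0.23 for Bpifa1. The hypoxia and glycolysis median against the other base cells stayed between 0.31, with Trf left out of the score, and 0.71. The cause of these changes was not tested. When cells were chosen on one part of their UMIs and measured on the rest, the ratio was 2.98 for Fgl1, 2.57 for Trf, 6.86 for Ndufa4l2 and 3.70 for Pon1, and 78.2% of the chosen cells were members. No paired analysis was possible because each condition has 1 library.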
